A study of Mus musculus with 2 samples.

Results

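The 10 genes described here encode the IRE1 and ATF6 arms of the unfolded protein response and the machinery of endoplasmic reticulum (ER) degradation that these arms feed: Ern1, Xbp1, Atf6, Atf6b, Dnajb9, Edem1, Derl1, Derl2, Sel1l and Herpud1. They were taken by symbol from the 31053 gene identifiers of the count tables, and their unique molecular identifiers (UMIs) were summed over each library and over each deposited cell cluster. All 10 were detected in both libraries and passed the limit for a measured gene, a mean of at least 10 CPM (counts per 1000000 UMIs) over both libraries. The limit left 8644 genes in all.

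IRE1 is an ER membrane protein whose cytoplasmic part is a kinase and an RNase; when unfolded proteins accumulate, it cuts the Xbp1 mRNA, and the rejoined mRNA encodes the active transcription factor XBP1s. ATF6 and its relative ATF6B are held in the ER membrane, move to the Golgi under stress and are cut there to release their own transcription factors. Proteins that fail to fold are recognised, moved back across the ER membrane and handed to the proteasome, a route known as ER-associated degradation, and in blood stem cells these pathways are studied as part of the control of protein quality.

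The study sorted LSK cells from C57BL/6 mice with a liver tumour. This gate takes cells with little or no lineage marker, with Sca1 and with much c-Kit, and holds blood stem cells and early progenitors. The mice, 6 to 8 weeks old, had received Hepa1-6 cells, a mouse hepatoma line, in the left lobe of the liver. One group is the LSK cells of their bone marrow and the other is the LSK cells of their spleen, each as 1 library of a droplet 3′ single-cell RNA assay. Both groups carry the tumour, no tumour-free mice were analysed here, and how many mice were pooled is not given in the sources used here, nor is a genotype beyond the strain. With 1 library per tissue there was no replicate check and no test. Every interval below is an exact 95% interval for counting error only, and tissue, sort and library cannot be told apart.

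The bone marrow library held 10088 cells and 73740963 UMIs (median 5991 per cell) and the spleen library 6546 cells and 85937174 UMIs (median 9978 per cell). They shared 16 cell barcodes. The deposited cell table puts each cell in 1 of 8 clusters (HSC-1, HSC-2, HSC-3, LP, DCP, MEP, MP, MCP), whose abbreviations it does not spell out, and adds reference labels. Markers of other lineages moved with the tissue. The 8 dendritic cell markers summed to 941 CPM in bone marrow and 15281 CPM in spleen, and the 6 erythroid markers to 168 and 1396 CPM. Cells whose reference label names dendritic cells, T, NK or B cells, mast cells, basophils or macrophages (called other-lineage labels below) were 126 of the bone marrow cells (1.25%) and 3578 of the spleen cells (54.7%). Cluster MEP, led by Car1, gave 5.69% of the bone marrow UMIs and 36.8% of the spleen UMIs. The spleen's LP, DCP, MP and MCP clusters held 84.8% or more cells with such labels, so a cluster of 1 name was not the same mixture in both tissues. Of the 7 mast cell or basophil markers all were detected in both, at sums of 35.3 and 811 CPM, and of the 7 T, NK or innate lymphoid markers 6 (Cd3e was at 0) and 7, at 121 and 534 CPM. Macrophage markers summed to 30.9 and 24.9 CPM, B cell markers to 7.44 and 2.37 CPM and plasma cell markers, of highly secretory cells, to 42.0 and 39.0 CPM. Stem cell markers summed to 614 and 115 CPM, granulocyte-monocyte markers to 2282 and 234 CPM, megakaryocyte markers to 219 and 66.6 CPM, and the 6 genes of the LSK gate list, all detected in both, to 1065 and 596 CPM. Values without the cells of other-lineage labels and without MEP are therefore given beside those over all cells.

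IRE1 acts on the Xbp1 mRNA at a pair of cut sites, and they are shown because the count tables cannot see what happens there. A search of the longest protein-coding Xbp1 transcript of GENCODE M21 for pairs of the letters CNGCAGN, cut after the third base, found the removed stretch at chr11:5524279-5524304 (GRCm38, mm10, plus strand), in exon 4 of 5 and inside the coding sequence. The stretch is in capitals, with 10 bases on either side.
Xbp1 cut site: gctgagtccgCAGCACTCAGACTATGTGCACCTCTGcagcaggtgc
Removal of its 26 bases lengthens the open reading frame from 267 to 371 codons. The transcript is 2129 bases long and the site ends 1289 bases before its 3′ end, whereas the assay reads the 3′ end and gives 1 value per gene. The Xbp1 values below are therefore the sum of both forms, and no value here measures IRE1 activity. A second pair of sites, 29 bases apart with the same first cut, also met the search.

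RefSeq promoter windows (GRCm38.p6) were at hand for 8 of the 10 genes, without Atf6 and Derl1. ATF6 and XBP1s are known to act through the ER stress elements ERSE (CCAAT, then any 9 bases, then CCACG) and ERSE-II (ATTGG, then any 1 base, then CCACG), and also through the element UPRE, searched here as TGACGTGG. Across 9 windows of 300 bases of these 8 genes, on both strands, ERSE-II was found in 1, that of Herpud1, and ERSE and UPRE in none. Of all 32851 RefSeq windows of that length, 0.0365% held ERSE-II, 0.119% ERSE and 0.676% UPRE. The 250 bases before the start sites of 3 degradation genes are printed to compare how the parts of these elements are set, with CCAAT and CCACG (or their reverse, ATTGG and CGTGG) in capitals; Herpud1 lies at chr8:94386179-94386428 (plus strand), Sel1l at chr12:91849158-91849407 (minus strand) and Edem1 at chr6:108828391-108828640 (plus strand).
Herpud1: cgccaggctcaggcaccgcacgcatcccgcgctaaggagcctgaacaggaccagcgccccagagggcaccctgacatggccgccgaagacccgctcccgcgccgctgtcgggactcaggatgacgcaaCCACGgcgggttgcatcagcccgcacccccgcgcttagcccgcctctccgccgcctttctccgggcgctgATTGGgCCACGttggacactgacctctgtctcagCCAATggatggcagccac
Sel1l: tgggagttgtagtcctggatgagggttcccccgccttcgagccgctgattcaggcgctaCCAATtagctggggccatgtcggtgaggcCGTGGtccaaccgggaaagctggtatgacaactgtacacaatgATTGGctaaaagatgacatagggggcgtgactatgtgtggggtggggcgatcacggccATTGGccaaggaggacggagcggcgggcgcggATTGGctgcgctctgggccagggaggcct
Edem1: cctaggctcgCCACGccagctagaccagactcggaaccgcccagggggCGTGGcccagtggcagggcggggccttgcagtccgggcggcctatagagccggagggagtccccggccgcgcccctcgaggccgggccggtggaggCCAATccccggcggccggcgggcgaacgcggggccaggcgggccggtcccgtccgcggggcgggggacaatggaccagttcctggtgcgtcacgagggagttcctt
In Herpud1 the parts stand 1 base apart, 52 bases before the start site. Sel1l and Edem1 hold both parts without that spacing. The single parts are frequent: CCAAT was in 37.4% and CCACG in 32.8% of all windows. Such matches are letters only and show no binding.

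Ern1 (chr11:106394650-106487852, minus strand) encodes IRE1. It was highest in cluster HSC-1 and lowest in cluster MEP of both tissues, and the interval of its spleen to bone marrow ratio lay below 1 in 6 of the 7 clusters compared; in MP, with 17 bone marrow UMIs, the ratio of 0.810 had an interval that included 1 (0.494 to 1.42). Its bone marrow levels were 49.9 CPM in HSC-1, 44.8 in LP, 32.5 in DCP, 30.3 in HSC-2, 28.6 in HSC-3, 17.2 in MP and 14.3 in MEP. In that order HSC-1 and LP did not differ beyond counting error, and neither did the neighbours from DCP to HSC-3. Spleen levels ran from 27.8 CPM in HSC-1 and 24.6 in LP over 18.7 in HSC-2 to between 12.7 and 14.0 in MP, HSC-3, DCP and MCP, and to 5.44 in MEP (4.66 to 6.31). In spleen, too, HSC-1 and LP did not differ beyond counting error. HSC-1 exceeded MEP 3.49-fold in bone marrow (2.69 to 4.60) and 5.11-fold in spleen (4.22 to 6.20). Over both tissues spleen HSC-1 came right after bone marrow HSC-3 and did not differ from it beyond counting error, and spleen MEP was below every other group.

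Atf6 (chr1:170704674-170867771, minus strand) encodes the membrane-held factor itself and had another order: it was highest in cluster MP, whose highest dendritic cell marker was Cd74, at 8073 CPM in bone marrow and 19966 CPM in spleen. MP stood at 75.0 CPM in bone marrow (58.9 to 94.2, from 74 UMIs) and 74.1 in spleen (69.9 to 78.5). The next levels were 59.3 in spleen DCP and 52.7 in bone marrow LP; the HSC clusters lay between 28.9 and 43.1 CPM, and MEP was lowest at 23.1 and 17.5 CPM. Thus MP and MEP differed 3.25-fold in bone marrow (2.37 to 4.44) and 4.24-fold in spleen (3.82 to 4.70).

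Atf6b (chr17:34647146-34655074, plus strand), whose product is described as a weaker relative of ATF6, was the scarcest member over all cells of the bone marrow. It had 12.0 CPM there and 20.7 CPM in spleen. MP was again highest, at 22.3 CPM in bone marrow (14.0 to 33.8, 22 UMIs) and 35.7 in spleen (32.8 to 38.9), followed by spleen DCP at 32.2. Unlike Ern1 and Atf6 its bone marrow minimum was HSC-1, at 8.77 CPM, and MEP was not low, at 15.5 CPM in bone marrow and 17.6 in spleen. The lowest spleen value, 8.92 CPM in MCP, rested on 14 UMIs.

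**Figure D1:**
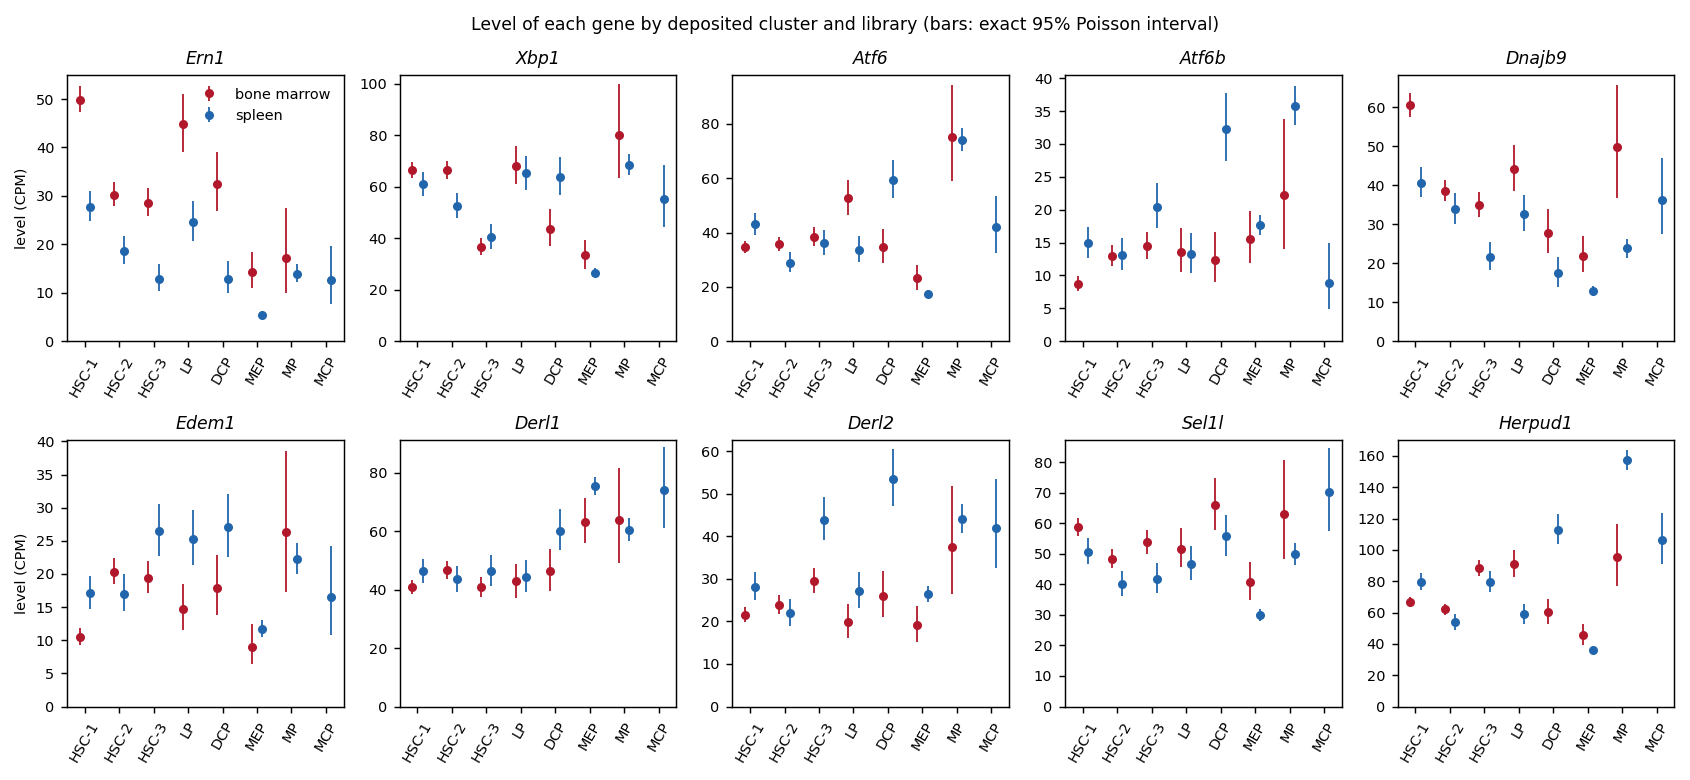
Level of each of the 10 genes (CPM, linear axis from 0) by deposited cluster in bone marrow (red) and spleen (blue); points are sums over cells of 1 library and bars are exact 95% Poisson intervals. Ern1 and Dnajb9 have their highest values in HSC-1, and Atf6 and Herpud1 in MP. Some of these highest values lie within counting error of another cluster, as for Dnajb9 in bone marrow HSC-1 and MP. Derl1 is the gene whose spleen maximum, 75.4 CPM, is in MEP. MCP had too few bone marrow cells to be shown there.

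Xbp1 (chr11:5520659-5525893, plus strand) is the substrate of IRE1. Its levels formed a broad upper range and a low end. In bone marrow MP (80.1 CPM, 63.4 to 99.8), LP (68.2), HSC-1 (66.6) and HSC-2 (66.3) did not differ from their neighbours in the order, and DCP (43.8), HSC-3 (36.7) and MEP (33.4) were lower. In spleen MP (68.5), LP (65.2), DCP (63.8) and HSC-1 (61.0) formed the upper end and MEP (26.7) the lower. Its maximum over its minimum was 2.40-fold in bone marrow (1.80 to 3.19) and 2.57-fold in spleen (2.34 to 2.81).

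Dnajb9 (chr12:44205559-44210326, minus strand) encodes ERdj4, a co-chaperone of BiP that is known as an XBP1 target and that keeps IRE1 inactive. HSC-1 led with 60.5 CPM in bone marrow (57.6 to 63.5) and 40.6 in spleen (36.9 to 44.6), and MEP was lowest with 21.9 and 12.8 CPM. MP, the other high cluster of the bone marrow at 49.7 CPM, held 23.8 CPM in spleen. Its bone marrow ratio to HSC-1, 0.821, had an interval that included 1 (0.605 to 1.09). Over the 15 groups of library and cluster with at least 100 cells, the Pearson correlation of log2(CPM + 1) was 0.80 between Dnajb9 and Ern1 and 0.65 between Dnajb9 and Xbp1. These are descriptions, since the groups share 2 libraries, their depth and their cells' lineage.

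The degradation genes did not share 1 pattern. Edem1 (chr6:108828641-108859356, plus strand), which helps to extract misfolded glycoproteins from the folding cycle, was scarce at 15.6 CPM in bone marrow and 17.9 in spleen. In bone marrow MP had 26.4 CPM (17.2 to 38.6, 26 UMIs), HSC-2 20.4 and HSC-3 19.4, and HSC-1 (10.5) and MEP (9.05) were lowest. In spleen DCP (27.0), HSC-3 (26.4) and LP (25.2) led and did not differ from their neighbours in the order, and MEP had 11.7 CPM.

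Derl1 (chr15:57869502-57892448, minus strand) and Derl2 (chr11:71007164-71019841, minus strand) encode derlins, membrane proteins of the channel through which substrates leave the ER. Derl1 was highest where Ern1 was lowest. Spleen MEP held 75.4 CPM (72.4 to 78.5), spleen MCP 73.9 (61.1 to 88.6), bone marrow MP 63.9 and bone marrow MEP 63.1, while every HSC and LP group lay between 40.8 and 46.7 CPM. Its correlation with Ern1 over the 15 groups was −0.82. Derl2 instead peaked in spleen DCP (53.4 CPM, 47.1 to 60.4), ahead of spleen MP (44.1), HSC-3 (43.9) and MCP (42.0); spleen MEP had 26.4 CPM and the lowest groups, bone marrow MEP and LP, 19.1 and 19.9. The Derl2 gene overlaps Mis12 on the other strand, and the strand setting of the counting is not given in the sources used here.

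Sel1l (chr12:91806043-91849157, minus strand) encodes the partner that holds the HRD1 ubiquitin ligase in place. It was the most even member in bone marrow next to Derl1, from 40.7 CPM in MEP to 65.9 in DCP, a 1.62-fold range (1.32 to 1.98). HSC-1 had 58.8 CPM in bone marrow and 50.7 in spleen. Spleen MEP was lowest of all groups at 30.0 CPM (28.1 to 32.0) and spleen MCP highest at 70.1 (57.6 to 84.5).

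Herpud1 (chr8:94386438-94395377, plus strand), a membrane protein that recruits ubiquilins to the ligase and is induced by ER stress, was the most abundant member over all cells of each library. It stood at 157 CPM in spleen MP (151 to 164), above every other group. Spleen DCP had 113 CPM, spleen MCP 106, and bone marrow MP 95.3 (77.0 to 117), LP 90.9 and HSC-3 88.3. MEP was lowest at 45.5 CPM in bone marrow and 36.0 in spleen, 4.37-fold below MP in spleen (4.07 to 4.69). Its levels ran with those of Atf6 over the 15 groups, with a correlation of 0.92. The gene overlaps Gm15890, an antisense gene.

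MEP was thus the lowest cluster for 8 of the 10 genes in bone marrow and for 7 of 10 in spleen. MP was the highest for 7 and for 4. The same counts over all measured genes were not made, so nothing particular to these genes is read from them. They take the bare lowest and highest values, and several bone marrow intervals against the next cluster included 1. For the lowest cluster, MEP, this held against MP for Ern1, HSC-3 for Xbp1, HSC-1 for Edem1 and LP for Derl2. For the highest, MP, it held against LP for Herpud1 and MEP for Derl1, among others. Dnajb9 also overlaps the microRNA gene Mir5627 on the other strand, and Atf6 2 small nuclear RNA genes on its own strand. CPM are scaled to the library and not to gene length, and a 3′ assay counts molecules, so levels were compared between groups and not between genes except as counted molecules.

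Spleen was set against bone marrow next. Over all cells, Ern1 and Dnajb9 were lower in spleen and Atf6b was higher, by the size rule used here, at least 1.5-fold on the log2(CPM + 1) scale. Ern1 had 2731 UMIs in bone marrow (37.0 CPM, 35.7 to 38.5) and 1171 in spleen (13.6 CPM, 12.9 to 14.4), a ratio of 0.368 (0.343 to 0.394). For Dnajb9 the values were 45.0 and 23.2 CPM, a ratio of 0.516 (0.488 to 0.546). Atf6b, at 12.0 and 20.7 CPM, had a ratio of 1.72 (1.59 to 1.87). That is 1 of 10 genes higher and 2 of 10 lower, where 10.8% of the 8644 measured genes were higher and 18.3% were lower, so the members' counts lie near the background. The median log2 ratio was 0.07 over the 10 genes and −0.11 over all measured genes. With TMM scaling 18.7% of genes were higher and 10.7% lower (1615 and 926 genes in place of 937 and 1578), the median of all genes moved to 0.10, and Derl1 and Derl2 passed the limit beside Atf6b. Centred on the median gene, 14.5% were higher (1252 genes) and 13.8% lower (1192 genes), and Atf6b, Ern1 and Dnajb9 were again the members past the limit.

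The other 7 genes stayed within the limit. Xbp1 had 58.5 CPM in bone marrow and 47.5 in spleen (ratio 0.812, 0.778 to 0.848) and Sel1l 53.9 and 41.5 (0.770, 0.736 to 0.806). Atf6 had 36.7 and 37.5 CPM (1.02, 0.970 to 1.07), the 1 member whose interval included 1. Herpud1 (69.8 and 75.8 CPM) and Edem1 had ratios of 1.09 and 1.15, and Derl1 (44.4 and 60.4 CPM) and Derl2 (23.8 and 32.6 CPM) of 1.36 and 1.37.

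Without the cells of other-lineage labels, 9962 bone marrow and 2968 spleen cells, the order changed. The dendritic cell markers then summed to 647 and 658 CPM, while the erythroid markers summed to 170 and 2270 CPM. No member was higher (background 14.4%) and 5 of 10 were lower (background 23.8%), with a median log2 ratio of −0.61 beside −0.13 over all genes: Ern1 at 0.355, Dnajb9 at 0.496, Xbp1 at 0.615, Atf6 at 0.618 and Herpud1 at 0.638. Atf6b stood at 1.32 (1.20 to 1.45), no longer past the limit. Leaving out cluster MEP as well, with 9605 bone marrow and 2087 spleen cells, brought most genes close to 1. Ern1 alone was past the limit, at 0.647 (0.588 to 0.711), where 1.59% of genes were higher and 2.39% lower, and the median log2 ratio was −0.28 over the members and −0.02 over all genes. Dnajb9 was then 0.792 (0.731 to 0.857), Xbp1 0.828, Atf6 0.807, Sel1l 0.810 and Herpud1 0.809, all with intervals under 1. For Atf6b (1.09), Edem1 (0.959), Derl1 (0.982) and Derl2 (1.00) the interval included 1.

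**Figure D2:**
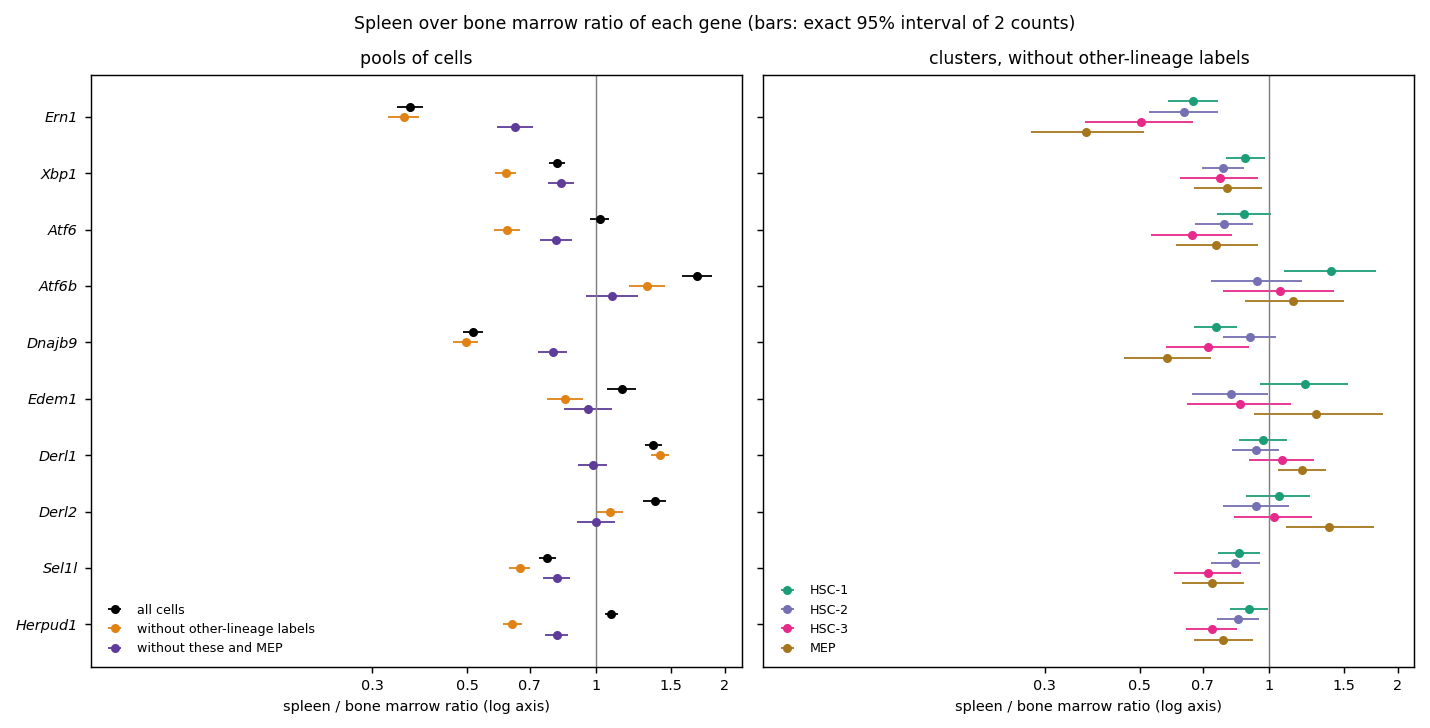
Ratio of spleen to bone marrow CPM for each gene (log axis), for 3 pools of cells on the left and, on the right, for the 4 clusters large enough once other-lineage labels are left out; bars are exact 95% intervals of 2 counts. Ern1 lies below 1 in every pool and cluster shown, from 0.355 to 0.666. On the left, Atf6b, Derl1 and Derl2 approach 1 in the pool without MEP and other-lineage labels. On the right, Atf6b stays at 1.39 in HSC-1 and Derl2 at 1.38 in MEP.

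Within clusters as deposited, Ern1 was past the limit in 5 of the 6 clusters where it was measured, and its interval lay below 1 in 6 of 7. In HSC-1, Atf6b (1.70) and Edem1 (1.63) were higher, against 4.96% of genes, and Ern1 (0.557) was lower, against 5.48%. In HSC-2 no member was higher (1.67% of genes) and Ern1 (0.617) was lower (2.77%). HSC-3 had none higher (5.77%) and Ern1 (0.452) and Dnajb9 (0.619) lower (8.77%). In LP Edem1 (1.71) was higher (8.90%) and Ern1 (0.549), Atf6 (0.636) and Herpud1 (0.646) were lower (10.7%). In DCP Atf6 (1.72), Atf6b (2.61), Derl2 (2.05) and Herpud1 (1.87) were higher (13.7%) and Ern1 (0.396) and Dnajb9 (0.629) lower (32.5%). In MP Atf6b (1.60) and Herpud1 (1.65) were higher (8.03%) and Dnajb9 (0.479) lower (29.7%). In MEP none was higher (7.46%) and Dnajb9 (0.583) was lower (13.5%). Ern1 stood at 0.380 there (0.282 to 0.519), but its mean over both libraries was under 10 CPM in MEP, so it was not counted.

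Without other-lineage labels, 4 clusters kept at least 100 cells in each library. Ern1 was lower in spleen in all 4, with ratios of 0.375 in MEP (0.278 to 0.512), 0.501 in HSC-3 (0.373 to 0.664), 0.634 in HSC-2 (0.525 to 0.761) and 0.666 in HSC-1 (0.581 to 0.762). Xbp1 (0.768 to 0.881), Sel1l (0.720 to 0.850) and Herpud1 (0.737 to 0.899) also had intervals below 1 in all 4, by smaller amounts. Atf6 and Dnajb9 did so in 3 of 4. Derl1, Derl2, Edem1 and Atf6b each had an interval that included 1 in 3 of 4; the exceptions were Derl1 (1.20) and Derl2 (1.38) in MEP, Atf6b (1.39) in HSC-1 and Edem1 (0.815) in HSC-2. In these cells no member was past the limit in HSC-1 (1.62% of genes higher, 2.22% lower), 1 was lower in HSC-2 (1.45% and 2.48%), 1 was lower in HSC-3 (4.45% and 7.30%), and 1 of 9 measured, Dnajb9, was lower in MEP (7.65% and 13.7%). Ern1 was the gene past the limit in HSC-2 and HSC-3. In spleen HSC-1 without these labels the stem cell markers summed to 723 CPM, against 1004 CPM in bone marrow, and the mast cell or basophil markers to 155 against 7.80 CPM; their part in the Ern1 difference was not tested.

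The reference labels gave a finer view of the red cell branch. The labels HSC-1, Ery-1, Ery-2 and Ery-3, here those of the reference and not of the clusters, name a stem cell state and 3 erythroid states. The 6 erythroid markers summed to 20.3 CPM under HSC-1, 1235 under Ery-1 and 3106 under Ery-2 in bone marrow, and to 34.5, 1135, 3039 and 3962 CPM under HSC-1 to Ery-3 in spleen. The erythroid names thus fit the rise of their markers, though dendritic cell markers summed to 1727 CPM under spleen Ery-1. The 6 stem cell markers summed to 781 CPM under HSC-1 in bone marrow and to 489 CPM in spleen. In bone marrow granulocyte-monocyte markers (942 CPM) were higher than the stem cell markers, and dendritic cell markers summed to 702 CPM. In spleen T, NK or innate lymphoid markers (760 CPM) and dendritic cell markers (800 CPM) were higher than the stem cell markers. The name HSC-1 is therefore used in both tissues only as the label. Ern1 stood lower in each erythroid state than in the one named before it: in spleen it had 28.6 CPM under HSC-1, 16.3 under Ery-1, 7.06 under Ery-2 and 4.53 under Ery-3, and in bone marrow 42.6, 22.2 and 10.4 CPM under the first 3. Spleen Ery-3 cells had 0.159 of the Ern1 level of spleen HSC-1 cells (0.128 to 0.194), although the step from Ery-2 to Ery-3 had an interval that included 1 (0.642, 0.415 to 1.03). Dnajb9 followed the same order in spleen, with 42.5, 30.7, 16.4 and 11.2 CPM. Derl1 ran the other way, with 40.3, 47.6, 59.5 and 79.5 CPM, and Ery-3 was 1.97-fold above HSC-1 (1.81 to 2.16). Atf6b also was highest in Ery-3, with 12.1, 10.2, 13.3 and 18.7 CPM. Xbp1 instead changed in 1 step, from 55.7 CPM under HSC-1 to 27.7 under Ery-1, and held 23.1 and 27.4 CPM after it. Median depth also ran along these labels in spleen, from 7860.5 UMIs per cell in HSC-1 to 41601.5 in Ery-3, and its part in these orders was not tested.

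**Figure D3:**
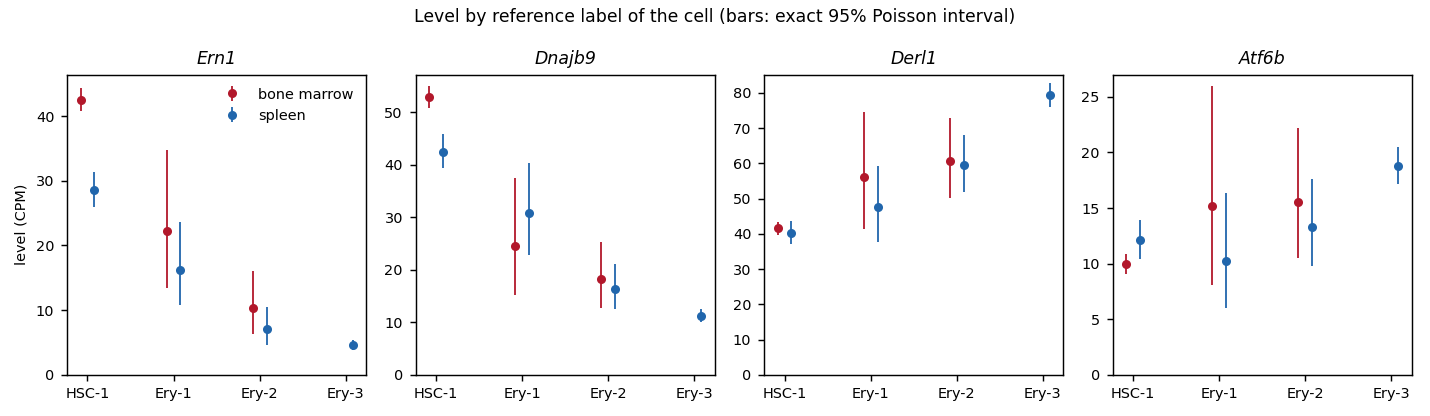
Level (CPM, linear axis from 0) of Ern1, Dnajb9, Derl1 and Atf6b under 4 reference labels, from the stem cell label HSC-1 to the erythroid label Ery-3, in bone marrow (red) and spleen (blue), with exact 95% Poisson intervals. Ern1 and Dnajb9 are lowest and Derl1 and Atf6b highest in spleen Ery-3; bone marrow had too few Ery-3 cells to be shown.

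The same labels were used to compare the tissues, although cells of 1 label differed in their markers. Under HSC-1, T, NK or innate lymphoid markers summed to 100 CPM in bone marrow and 760 in spleen, mast cell or basophil markers to 16.7 and 260 CPM, and stem cell markers to 781 and 489 CPM. HSC-2 had 105 and 1060 CPM of the T, NK or innate lymphoid markers, 65.0 and 468 of the erythroid and 576 and 131 of the stem cell markers, and HSC-3 had 106 and 871 CPM of the T, NK or innate lymphoid markers. Their part in the ratios was not tested beyond leaving out the other-lineage labels. Of the 5 labels with at least 100 cells in each library (Ery-1, Ery-2, HSC-1, HSC-2, HSC-3), Ern1 was lower in spleen in 5, at ratios of 0.585 to 0.732, and its interval lay below 1 in the 3 HSC labels. Without other-lineage labels its ratios were 0.533 to 0.752, again with 3 intervals below 1. Sel1l was lower in 5 (0.651 to 0.816), with 4 intervals below 1 with and without those labels. Herpud1 and Atf6 had 3 intervals below 1 each, and 3 and 1 without those labels. Dnajb9 had 2 and Xbp1 1 below 1, and 1 and 2 without them. Edem1, Atf6b and Derl1 had 1 interval above 1 each and none below, and of these Derl1 kept 1 above without those labels while Edem1 and Atf6b had none. For Derl2 no label's interval excluded 1. These counts of labels were not made over all measured genes, so how usual they are is not known. In bone marrow the label Neu-3 had the highest Xbp1 and Edem1 levels of any label with at least 100 cells, 101 CPM (86.7 to 116) and 37.9 CPM (29.5 to 47.9), 1.69-fold and 2.94-fold above HSC-1 cells. For Edem1 the next label, spleen Ba-1, had 35.2 CPM with a wide interval (12.9 to 76.6).

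The spleen cells with other-lineage labels were set against the remaining spleen cells, first outside cluster MEP, which holds 36.8% of the spleen UMIs and nearly no such labels. Of the 3568 labelled and 2087 other cells, the former had more of 8 genes and less of 2, all with intervals that excluded 1. How many of all measured genes differed in this way was not counted, so these counts are not read as particular to the members. Herpud1 had 125 against 57.3 CPM (2.18-fold, 2.05 to 2.33), Atf6b 28.5 against 12.7 (2.23-fold, 1.95 to 2.57) and Atf6 61.2 against 29.9 (2.05-fold, 1.87 to 2.24). Derl2, Edem1, Derl1, Xbp1 and Sel1l were 1.84, 1.68, 1.37, 1.34 and 1.14-fold higher. Ern1 was lower, at 14.2 against 25.0 CPM (0.569, 0.502 to 0.646), and so was Dnajb9, at 24.6 against 36.7 CPM (0.671, 0.608 to 0.742). With MEP cells included, 3 readings differed: Ern1 stood at 1.08 with an interval that included 1 (0.956 to 1.21), Dnajb9 at 1.11 and Derl1 at 0.929 (0.878 to 0.983), while Herpud1 and Atf6 reached 2.82 and 2.72-fold. The reference label Mono-3 (1914 spleen cells) is not itself an other-lineage label, but 99.9% of its cells had one from a second set of reference labels. Its dendritic cell markers summed to 52830 CPM and its granulocyte-monocyte markers to 28.0 CPM, so its name is used only as the label. In it Herpud1 had 149 CPM, Atf6 73.1 and Atf6b 34.1 CPM, against 58.0, 29.1 and 12.1 under the spleen HSC-1 label.

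Shares of cells with a UMI depend on depth, so each cell was also thinned at random to 3700 UMIs, which left out 1007 and 672 shallower cells of bone marrow and spleen. As deposited, Ern1 was seen in 22.5% of bone marrow cells (21.7 to 23.3%) and 15.9% of spleen cells (15.1 to 16.8%), and at 3700 UMIs in 13.1% and 6.47%. Dnajb9 was seen in 26.8% and 25.0% as deposited and in 16.4% and 10.4% at equal depth. Xbp1 and Sel1l changed order between the depths. Xbp1 was in 31.2% of bone marrow and 39.9% of spleen cells as deposited and in 19.1% and 17.4% at equal depth, and Sel1l in 30.7% and 38.4% and then in 18.1% and 15.4%. The equal-depth order matches that of the CPM. Atf6b had 3.91% and 7.37% at equal depth and Herpud1 22.0% and 25.3%. At 3700 UMIs per cell Ern1 was found in 16.3% of bone marrow and 10.7% of spleen HSC-1 cells, and in 1.80% of spleen MEP cells.

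**Figure D4:**
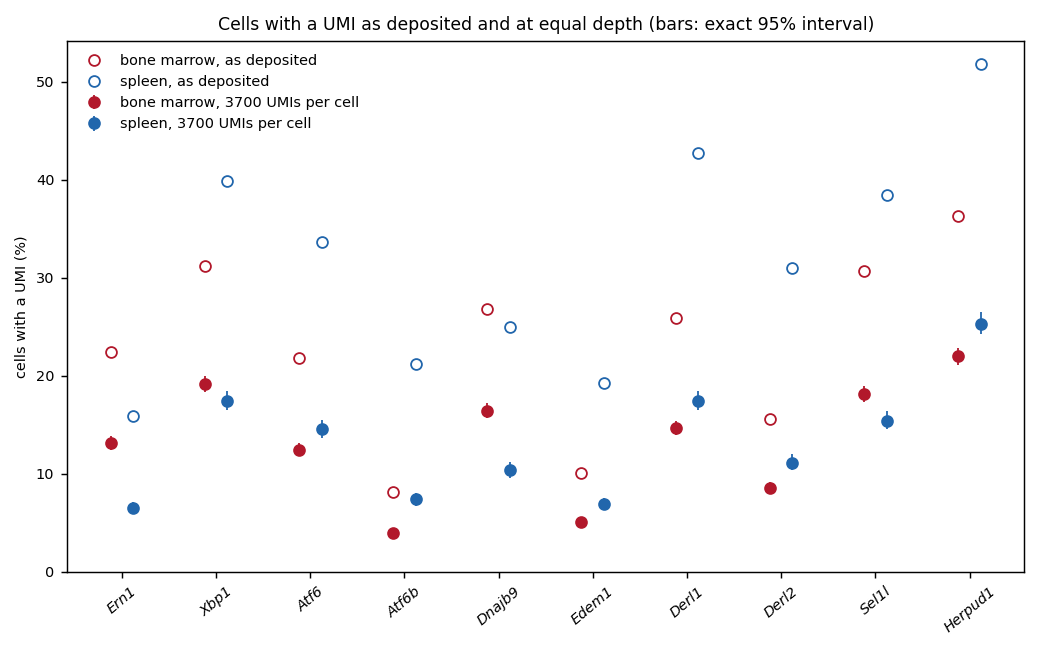
Percent of cells with at least 1 UMI of each gene (axis from 0), as deposited (open) and thinned to 3700 UMIs per cell (filled, with exact 95% Clopper-Pearson bars), in bone marrow (red) and spleen (blue). Ern1 and Dnajb9 are in fewer spleen than bone marrow cells at either depth, while Xbp1 and Sel1l lie above bone marrow as deposited and below it at equal depth.

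No cell type is known to lack these genes, so RNA free in the droplets was gauged with genes of other lineages. In spleen MEP cells, H2-Aa, an antigen-presentation gene, had a UMI in 43.2% of cells and the mast cell protease Cma1 in 20.5%, at a median of 36084 UMIs per cell. In bone marrow MEP cells the shares were 3.36% and 0 of 357 cells, which allows up to 1.03%, at a median of 11230 UMIs. Such RNA was not confined to the deepest cluster. In cluster HSC-1, H2-Aa was in 35.2% of spleen and 8.36% of bone marrow cells, and Cma1 in 24.2% and 0.198%. Median depth there was 6934 and 4794 UMIs, and 30.7% of these spleen cells had other-lineage labels. The part of free RNA in the members' shares was not tested.

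The other genes of the pathways were counted by the same size rule over all cells, where 10.8% of all measured genes were higher and 18.3% lower. Of the list of IRE1 and ATF6 activation and signalling, 2 of 17 measured genes were higher in spleen and 3 lower. Bax, a mitochondrial death factor that also binds IRE1, had 47.7 CPM in bone marrow and 120 in spleen (2.52-fold, 2.42 to 2.61), and Atf6b was the other. Map3k5, the ASK1 kinase downstream of IRE1, had 25.3 and 11.5 CPM (ratio 0.454, 0.420 to 0.490), beside Ern1 and 1 other gene. Of XBP1 targets of secretion and folding, none of 26 was higher and 2 were lower, Dnajb9 and Tram1, a helper of translocation (123 and 79.5 CPM, 0.644). The highest were Ssr2 and Srp19, parts of the translocon and of the signal recognition particle, at 1.46 and 1.40-fold. Of ATF6 targets and BiP partners, 1 of 16 was higher and 1 lower. Sdf2l1, an ER chaperone partner, had 13.6 CPM in bone marrow and 38.5 in spleen (2.83-fold, 2.63 to 3.04), and Crebrf had 74.6 and 42.5 CPM (0.569). Creld2, at 1.49-fold, and Calr, the chaperone calreticulin, at 0.777, stayed within the limit.

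The degradation list itself, with HRD1 and gp78 and their partners, had none of 31 measured genes higher and 2 lower. These were Fam8a1 (19.8 and 11.8 CPM, ratio 0.595), which helps to assemble the HRD1 complex, and Edem2 (54.3 and 35.1 CPM, 0.646), a mannosidase that starts the trimming of glycoproteins. The ligase Rnf5 and the lipid droplet protein Aup1 were its highest genes, at 1.47 and 1.41-fold. Of 10 known substrates of IRE1-dependent decay only 5 were measured, with 1 higher and 1 lower. Itgb2, a leukocyte integrin, had 14.6 and 41.8 CPM over all cells, but 13.6 and 10.7 CPM without the cells of other-lineage labels. Pdgfrb had 56.3 and 32.5 CPM, and Tapbp and Ergic3 had ratios of 1.35 and 1.01. Tapbp also changed sides without those cells, with 80.4 and 67.9 CPM, and the median log2 ratio of the decay list went from 0.16 to −0.24. The medians of the 5 lists lay between −0.08 and 0.16 on the log2 scale, beside −0.11 for all measured genes, and nothing particular to a list is read from that.

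**Figure D5:**
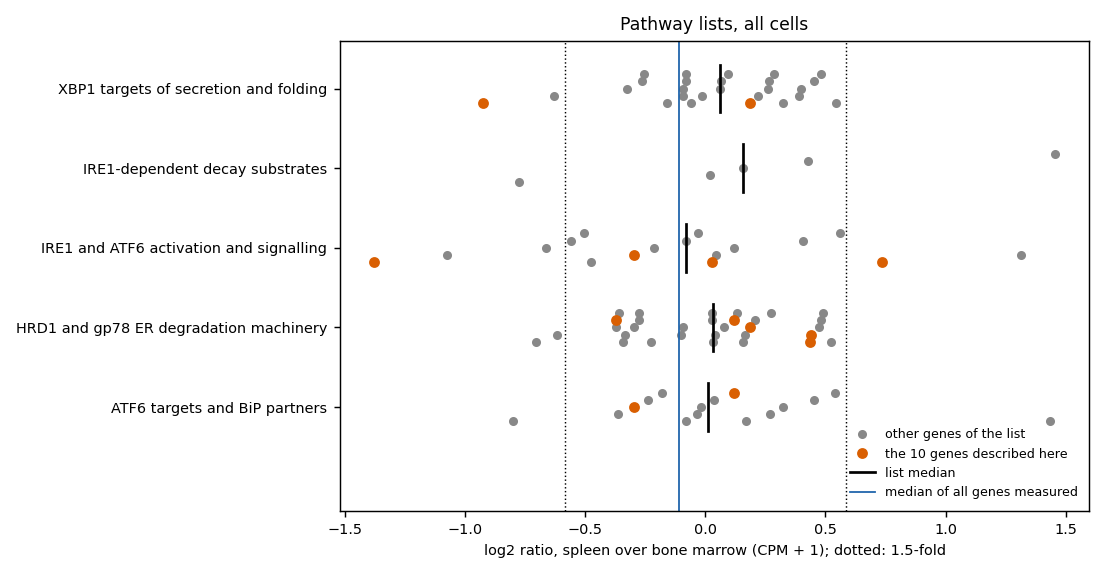
Log2 ratio of spleen over bone marrow (CPM + 1, all cells) for each measured gene of 5 pathway lists; orange points are the 10 genes described here, black bars are list medians, the blue line is the median of all measured genes (−0.11) and dotted lines mark 1.5-fold. Ern1 is the lowest point and Dnajb9 the lowest of the XBP1 targets, while most genes lie between the dotted lines; a member can stand in more than 1 list.

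The genes most like each member were found by the Pearson correlation of log2(CPM + 1) over the 15 groups, among 8499 genes. The nearest to Ern1 were Lrp5 (0.95), Wdr13 (0.95) and Slc15a2 (0.94), and to Dnajb9 Lcor (0.96), Pi4kb (0.95) and Rufy2 (0.95). Xbp1 had Pfkfb3 (0.93), Bfar and Vsir (both 0.89). Atf6 had Fkbp15 (0.97), Klhl18 and Acox3 (both 0.95), and Klhl18 (0.92) was also among the nearest to Herpud1, after Pip4p1 (0.96) and Plekha1 (0.92). Atf6b had Hacd2 (0.95), Dnajc8 (0.94) and Pcbp2 (0.93), and Sel1l had Mlxip (0.94), Ep300 (0.94) and Rab14 (0.93). The nearest were less close for Edem1 (Clec12a 0.90, Ercc1 0.87, Marcks 0.86), Derl1 (Gid8 0.91, Nrbf2 0.89, Cndp2 0.87) and Derl2 (Dnajc4 0.91, Tubb2a 0.91, Ppp1r11 0.90).

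The deposited table also gives each cell an ER stress score, whose genes and method are not stated and which may include these members. Its median was 0.0732 in bone marrow and 0.114 in spleen, and it was higher in spleen in 7 of 7 clusters compared. Median depth was also higher in spleen in each of these clusters, and other-lineage labels covered 84.8% or more of the spleen's LP, DCP and MP cells. Their part in the score was not tested. In spleen its highest cluster median was in MEP, 0.149, which was also the cluster where 7 of the 10 genes were lowest. MEP was the deepest spleen cluster too, at a median of 36084 UMIs per cell. Over these 7 clusters the spleen to bone marrow interval lay below 1 in 6 for Ern1 and Dnajb9 and in 4 for Sel1l. It lay above 1 in 5 for Derl2, in 4 for Edem1 and Atf6b and in 3 for Derl1. It lay on either side for Herpud1 (4 below, 3 above), Atf6 (3 and 2) and Xbp1 (2 and 1). Counts of this kind were not made over all genes.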

How the data were processed

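LSK cells from bone marrow and spleen of tumour-bearing mice gave 1 library each. The deposited tables hold raw UMI counts per gene and cell; per the design text they were made by the authors with Cell Ranger 3.1.0 on GRCm38 (mm10), whereas the submitters' processing notes name mm9 and Seurat 3.1.5. The kit is named as version 3 in the design text and 3.1 in the labels' protocol. The mm10 annotation (GENCODE M21) paired 30934 of 31053 identifiers with a symbol. The deposited cell table gives clusters, reference labels and an ER stress score, whose making by the authors is not stated. Cell filters, doublet removal and strand use are not given in the sources used here. A deposited integrated matrix was not used, and 0 columns were left unmapped.

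Counts were summed per library and cluster or label (at least 100 cells) and scaled to CPM. Intervals are 95% and exact (Poisson for levels, Poisson pairs for ratios, Clopper-Pearson for shares) and cover counting error only. The assay's counts are of molecules by identifier. A gene was called higher or lower at 1.5-fold or more on log2(CPM + 1), provided its mean over both libraries reached 10 CPM for the cells compared. With 1 library per tissue no test was possible and no p was computed. Total depth was 73740963 UMIs in bone marrow and 85937174 in spleen.

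Genes named are the 10 members, of each pathway list the 2 highest and 2 lowest measured genes, and for each member the 3 genes of most similar pattern, leaving aside predicted genes (Gm and Rik names). The members and lists were chosen with earlier results of these data known. Alternatives were TMM scaling (edgeR 4.0.16), centring on the median gene, no filter, a pseudocount of 0.1, equal weight per cell, thinning to 3700 UMIs, weighting clusters alike in both tissues, and leaving out other-lineage labels or cluster MEP; leaving out both together, leaving MEP out of the comparison of spleen cells, and leaving other-lineage labels out of the reference labels were chosen after seeing the data. Python 3.11.15, numpy 2.4.6, scipy 1.17.1, pandas 2.3.3 and matplotlib 3.10.9 were used, and the size rule was tested on simulated data. Sequences are from GENCODE M21 and RefSeq GRCm38.p6.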

Additional observations from a re-analysis of the deposited data

Results flagged for a closer look

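Atf6 and Herpud1 lay on opposite sides of 1 in 2 clusters, and the difference between the clusters was not tested. The spleen to bone marrow ratio of Atf6 was 1.72 in DCP and 0.636 in LP, and that of Herpud1 was 1.87 in DCP and 0.646 in LP. Other-lineage labels covered 84.8% of the spleen cells in DCP and 86.1% in LP, against 0.794% and 1.69% of the bone marrow cells.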

How the results depend on the processing

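Over 10 alternatives for all cells, Ern1 was lower in spleen and past the limit in 10 (log2 ratio −1.44 to −0.61), Dnajb9 was lower in 10 and past it in 8 (−0.98 to −0.33), and Atf6b was higher in 10 and past it in 7 (0.12 to 0.93). The alternatives are not independent checks. Leaving out the filter does not alter a member's ratio, and centring moves all genes by the same amount. Xbp1, Derl2 and Sel1l kept their direction in 10, Derl1 in 9, and Atf6, Edem1 and Herpud1 in 8. Ern1, Dnajb9 and Atf6b, the members called over all cells, thus kept their direction throughout. Atf6 and Herpud1 went from log2 ratios of 0.03 and 0.12 over all cells to −0.67 and −0.64 without other-lineage labels, where both were called lower. Of the decay list, Itgb2, called higher at 1.46, stood at −0.31 without other-lineage labels. Pdgfrb, called lower at −0.78, stood at 0.15 with clusters weighted alike. Of the single genes' values under all alternatives, 173 stayed within and 97 moved out of the counting interval. The cause of the changes below was not tested.

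Members higher over all cells numbered 1, but 3 with TMM scaling and 0 with clusters weighted alike, without other-lineage labels, or without these and MEP. Members lower numbered 2, but 1 with clusters weighted alike, 5 without other-lineage labels and 1 without these and MEP. Genes higher numbered 937, but 1615 with TMM scaling, 1646 with no filter (where more genes are tested), 389 with clusters weighted alike and 138 without other-lineage labels and MEP, and genes lower numbered 1578, but 926, 3005, 506 and 208 under the same settings.

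The list counts below stand beside shares of all measured genes that also moved, from 10.8% higher and 18.3% lower over all cells. These shares were 18.7% and 10.7% with TMM scaling and 14.5% and 13.8% when centred. They were 4.45% and 5.78% with clusters weighted alike, and 14.4% and 23.8% without other-lineage labels. No change is read as particular to a list. For ATF6 targets, 1 higher became 2 without other-lineage labels, 3 with TMM scaling and 2 when centred on the median gene, and 1 lower became 0 with clusters weighted alike and 3 without other-lineage labels. For the HRD1 and gp78 list, 0 higher became 6 with TMM scaling and 3 when centred, and 2 lower became 0 with clusters weighted alike, 4 without other-lineage labels, 0 with TMM scaling and 1 when centred. For IRE1 and ATF6 activation, 2 higher became 1 with clusters weighted alike, 1 without other-lineage labels and 4 with TMM scaling, and 3 lower became 6 without other-lineage labels. For decay substrates, 1 higher became 0 without other-lineage labels and 2 with TMM scaling, and 1 lower became 0 with clusters weighted alike and 0 with TMM scaling. For XBP1 targets, 0 higher became 2 without other-lineage labels, 5 with TMM scaling and 2 when centred, and 2 lower became 0 with clusters weighted alike, 1 with TMM scaling and 1 when centred.

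Within clusters, members lower in DCP went from 2 to 1 and in MEP from 1 to 2 after thinning, and members higher in HSC-3 from 0 to 2. The shares of all measured genes within thinned clusters are not given here, so these counts are not read as particular to the members. Without other-lineage labels, members higher in HSC-1 went from 2 to 0 and lower from 1 to 0, and members lower in HSC-3 from 2 to 1. Of all measured genes, the share higher in HSC-1 went from 4.96% to 1.62% and the share lower from 5.48% to 2.22%. In HSC-3 the share lower went from 8.77% to 7.30%. The clusters DCP, LP and MP were not run without these labels, which left under 100 cells in a library. No paired analysis was possible because there was 1 library per tissue and no result comes from a test. Depth limits the small groups most: Ern1 in bone marrow MP rested on 17 UMIs.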
